A study of Mus musculus with 9 samples.

Results

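The developmental pluripotency associated (Dppa) genes were named as a group because their transcripts mark early embryos, embryonic stem (ES) cells and germ cells, and not because the proteins are alike. The 4 genes described here are Dppa2, Dppa3, Dppa4 and Dppa5a. They were found by matching the RefSeq accession of each array probe to a gene symbol, which gave 7 probes of the 39364 used, from 4 of the 19723 genes with a symbol and a probe. Dppa2 had 2 probes, Dppa4 had 3, and Dppa3 and Dppa5a had 1 each. All 7 probes were well above background on all 9 arrays and were tested. The only other gene on the array whose symbol starts with Dppa was Dppa1, whose 2 probes were well above background on 0 of 9 arrays.

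DPPA2 and DPPA4 are closely related nuclear proteins with a SAP domain, which binds DNA. They form a dimer, act on chromatin at developmental gene promoters, and in mouse ES cells switch on Dux and, through it, genes of the 2-cell embryo. DPPA3, also called STELLA or PGC7, is a small protein of oocytes, early embryos and primordial germ cells (PGCs) that protects the maternal genome from loss of methylation after fertilisation, and it binds UHRF1, the factor that recruits the maintenance methyltransferase DNMT1. DPPA5A, also called ESG1, is an RNA-binding protein with a KH domain and an abundant transcript of pluripotent cells.

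RNA was measured in 3 groups of sorted mouse cells, with 3 arrays in each. Both ES groups came from VV3, a single male line of 129SV background in which the Vasa (Ddx4) promoter drives the fluorescent protein Venus, grown with KSR, FBS and LIF. Both ES groups were collected 3 days after siRNA transfection. Control cells received AllStars, a non-silencing siRNA, and live single cells were collected. Max knockdown cells received siRNA against Max, which encodes the partner of MYC and MGA, and only Venus-positive cells were collected. The siRNA and the gate therefore differed together, and their parts in a difference cannot be told apart. PGCs, which later form sperm or eggs, were sorted by GFP from genital ridges of male E13.5 embryos (MCH x C57BL6/J, Oct4ΔPE-GFP Tg), so strain, reporter and culture also differed between ES cells and PGCs. The study compared Venus-positive knockdown cells with normal ES cells and with germ cells of the embryo.

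Between 58.2% and 67.6% of the 43020 spots of an array passed the scanner software's test for signal well above background. Saturated spots were absent from all 9 arrays. Max itself was 3.89-fold lower in knockdown than in control cells (limma adjusted p = 3.1e-05), and no array of one group reached the other. Ddx4, whose promoter drives the Venus gate, was 6.22-fold higher (limma adjusted p = 7.3e-06). Pou5f1 (Oct4), the pluripotency factor, differed by 0.04 on the log2 scale between knockdown and control and by -0.11 between PGCs and control, and neither passed the test. All 20 naive pluripotency genes were above background on every control array and 18 on every PGC array, and all 10 germ cell markers on every PGC array and 8 on every control array, so detection alone does not separate the groups. Levels are given below as log2 of the processed signal minus the array's 75th percentile, so 0 is the level of that percentile, and array values are in the order of the replicates. Differences come from 1 limma fit of all 9 arrays, with the standard error (SE) of the fit and p-values adjusted over 25129 probes. A probe counts as risen or fallen at an adjusted p under 0.05. The levels are of bulk RNA, in which fewer cells that carry a transcript and less of it per cell cannot be told apart.

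In Max knockdown cells, 6 of the 7 Dppa probes rose, 0 fell and 1, that of Dppa5a, did not pass the test. The 6 are 3 probes of Dppa4, 2 of Dppa2 and 1 of Dppa3, so probe counts here are not counts of genes. Among all tested probes, 18.3% rose and 21.7% fell in this comparison. In PGCs against control, 4 of the 7 rose, those of Dppa3 and Dppa4, and 3 fell, those of Dppa2 and Dppa5a. Here 43.4% of all tested probes rose and 32.3% fell, so a call by itself sets these genes little apart, and the sizes differed far more. PGCs against knockdown cells gave the same split of 4 risen and 3 fallen, with 44.9% of all tested probes risen and 31.5% fallen. The median difference of all tested probes was -0.06, 0.18 and 0.21 on the log2 scale in these 3 comparisons, in the same order. The smallest p that an exact permutation test of 1 probe allows with 3 arrays a group is 0.1, so calls were made from the spread that limma shares across probes.

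**Figure D1:**
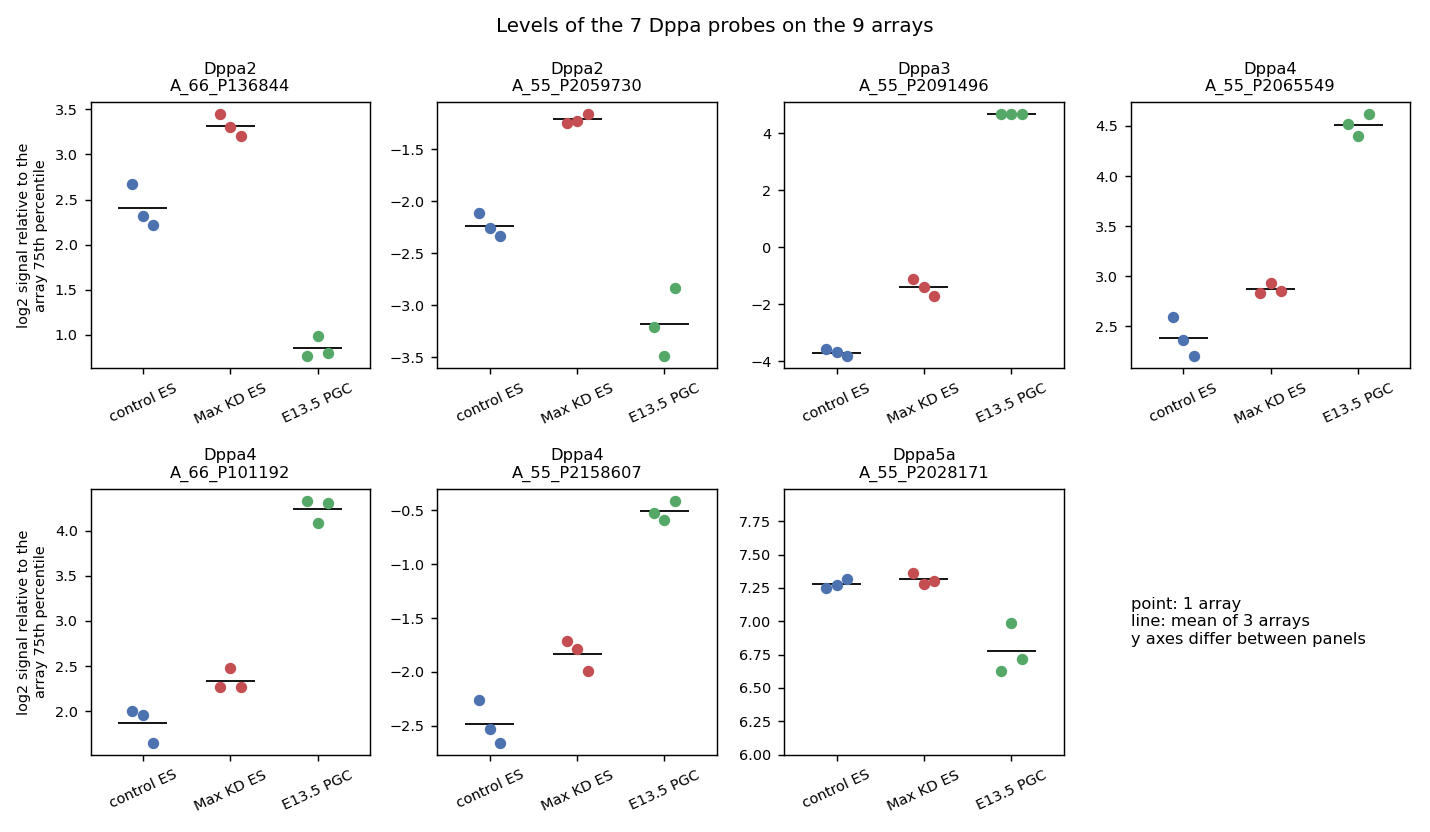
Level of each Dppa probe on each array, as log2 signal relative to the array's 75th percentile (y axis, different in each panel), for control ES, Max knockdown (KD) ES and E13.5 PGC arrays (x axis). Points are single arrays and lines are means of 3. Dppa2 is highest in knockdown cells and lowest in PGCs, Dppa3 and Dppa4 rise from control to knockdown to PGCs, and for Dppa5a the control and knockdown points overlap, with all 3 PGC points below them.

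Dppa3 showed the largest differences of the 4 genes in each comparison. On its probe (A_55_P2091496) the levels were -3.56, -3.68 and -3.82 on the control arrays. They were -1.10, -1.40 and -1.69 on the knockdown arrays and 4.66, 4.66 and 4.67 on the PGC arrays. The 3 groups were widely separated, the PGC arrays were almost identical, and the knockdown arrays lay nearer to control than to PGCs. Dppa3 rose by 2.29 (SE 0.14), or 4.88-fold, in knockdown cells (limma adjusted p = 2.0e-05). It was 8.35 (SE 0.14), or 325-fold, higher in PGCs than in control cells (limma adjusted p = 3.8e-09). Counted from the largest rise, this was number 8 of 25129 probes. Against knockdown cells, PGCs were 6.06 (SE 0.14), or 66.7-fold, higher (limma adjusted p = 1.3e-08), number 40 from the top.

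The size of the rise of Dppa3 in knockdown cells depended on how its dim control signal was treated. Before scaling, the processed signal was 75.99, 75.69 and 75.58 on the control arrays, 4.14 to 4.35 times that of the dimmest detected probe. On the knockdown arrays it was 408.2, 358.0 and 360.2. On the PGC arrays it was 28970, 16960 and 20870. The control signal was thus low but above background on every array, and the PGC signal was far from saturation. With a normexp correction of the median signals, which adds an offset that compresses low values, the rise in knockdown cells was 1.32 and that in PGCs 6.85 on the log2 scale, and both passed the test. The 2 slides that held both ES groups gave 2.37 and 2.12 for the rise in knockdown cells.

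Dppa2 was highest in knockdown cells and lowest in PGCs. The means of Dppa5a, given below, had the same order, but its ES groups overlapped. The brighter Dppa2 probe (A_66_P136844) read 2.67, 2.32 and 2.22 on the control arrays. It read 3.45, 3.30 and 3.21 on the knockdown arrays and 0.76, 0.99 and 0.80 on the PGC arrays. No group overlapped another. The level rose by 0.91 (SE 0.13), or 1.88-fold, in knockdown cells (limma adjusted p = 0.0011). It was 2.95-fold lower in PGCs than in control cells, at -1.56 (SE 0.13, limma adjusted p = 8.5e-06). It was 5.54-fold lower in PGCs than in knockdown cells, at -2.47 (SE 0.13, limma adjusted p = 5.7e-07). So Dppa2 was the gene that moved in opposite directions in the 2 comparisons with control.

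The dimmer Dppa2 probe (A_55_P2059730) gave the same order. Its levels were -2.11, -2.26 and -2.33 in control cells, -1.25, -1.23 and -1.16 in knockdown cells, and -3.21, -3.49 and -2.83 in PGCs. The groups again did not overlap, and the PGC arrays were the most spread. The knockdown difference was 1.02 (SE 0.16), or 2.03-fold (limma adjusted p = 0.0012). The PGC difference from control was -0.94 (SE 0.16), 1.92-fold lower (limma adjusted p = 0.00051), and that from knockdown -1.96 (SE 0.16), 3.9-fold lower (limma adjusted p = 5.2e-06). The fall in PGCs was thus smaller than on the brighter probe: the ratio of the brighter to the dimmer probe, taken within each array, was lower by 0.62 in PGCs than in control cells, with no overlap of arrays (exact permutation p = 0.1). In the knockdown comparison this ratio differed by -0.11 and the groups overlapped (exact permutation p = 0.4). Within the 2 slides, the knockdown difference was 0.87 and 0.98 on the brighter probe and 0.94 and 1.17 on the dimmer one.

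Dppa4, which encodes the partner of DPPA2, rose in both comparisons with control, on each of its 3 probes. On A_55_P2065549 the levels were 2.59, 2.36 and 2.20 in control cells, 2.83, 2.93 and 2.85 in knockdown cells, and 4.52, 4.40 and 4.62 in PGCs. On A_66_P101192 they were 2.01, 1.96 and 1.65, then 2.27, 2.48 and 2.27, then 4.33, 4.08 and 4.31 in the same groups. On A_55_P2158607, a dimmer probe, they were -2.26, -2.53 and -2.66, then -1.71, -1.79 and -1.99, then -0.52, -0.59 and -0.41. All 3 probes placed control lowest, knockdown above it by a small step and PGCs clearly highest, with no overlap between groups. In PGCs the rise over control was 2.13 (SE 0.11), 2.37 (SE 0.12) and 1.98 (SE 0.12) on the 3 probes, or 4.38-fold, 5.16-fold and 3.93-fold. The limma adjusted p-values were 4.6e-07, 4.5e-07 and 1.2e-06. PGCs also exceeded knockdown cells by 1.64, 1.90 and 1.32, or 3.13-fold, 3.73-fold and 2.5-fold, with limma adjusted p-values of 2.2e-06, 1.7e-06 and 1.6e-05. When arrays were scaled on spike-in transcripts instead, the rises over control were 1.18, 1.42 and 1.02, of which only that on A_66_P101192 passed (limma adjusted p = 0.051, 0.016 and 0.096). The differences from knockdown were then 0.67, 0.93 and 0.35, and none passed (limma adjusted p = 0.3, 0.14 and 0.63). The SE was 0.51 for each of these values.

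The rise of Dppa4 in knockdown cells was the smallest that passed the test among the 4 genes. It was 0.49 (SE 0.11), 0.47 (SE 0.12) and 0.65 (SE 0.12) on the 3 probes, or 1.4-fold, 1.38-fold and 1.57-fold. The limma adjusted p-values were 0.0092, 0.017 and 0.0037. On A_66_P101192 the call rested on single arrays: without knockdown replicate 2 the difference was 0.40 (limma adjusted p = 0.062), and without control replicate 3 it was 0.36 (limma adjusted p = 0.051). With the replicate number fitted as a block, A_55_P2065549 and A_66_P101192 did not pass (limma adjusted p = 0.067 and 0.089), and A_55_P2158607 did (limma adjusted p = 0.017). Within the 2 slides the rise was 0.41 and 0.64, 0.39 and 0.63, and 0.65 and 0.67 on the 3 probes. On the dimmer probe, normexp gave 0.35 in place of 0.65. In the scaling on spike-in transcripts, the rises of Dppa2 and Dppa4 in knockdown cells kept their size and did not pass the test, at limma adjusted p-values of 0.41 to 1, and that of Dppa3, 2.31, passed. The SE of each of these rises was 0.51 in that scaling, in place of 0.11 to 0.16, so the lost calls went with a wider spread and not with smaller rises.

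Dppa5a showed no called difference between knockdown and control cells. Its probe (A_55_P2028171) read 7.25, 7.27 and 7.32 on the control arrays. It read 7.36, 7.28 and 7.30 on the knockdown arrays and 6.63, 6.99 and 6.72 on the PGC arrays. The ES groups overlapped, and every PGC array lay below every ES array. The knockdown difference was 0.03 (SE 0.10, limma adjusted p = 0.82, exact permutation p = 0.4), and under the alternatives run it went from -0.02, within 1 slide, to 0.21, with normexp. PGCs were 1.41-fold lower than control cells, at -0.50 (SE 0.10, limma adjusted p = 0.002), and 1.45-fold lower than knockdown cells, at -0.53 (SE 0.10, limma adjusted p = 0.0013). Processed signals of this probe ran from 85560 to 183600 over the 9 arrays, below the saturation value of 778624 to 778934. The transcript was thus bright in all 3 groups, and its fall in PGCs was the smallest called difference between PGCs and ES cells among the 7 probes.

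**Figure D2:**
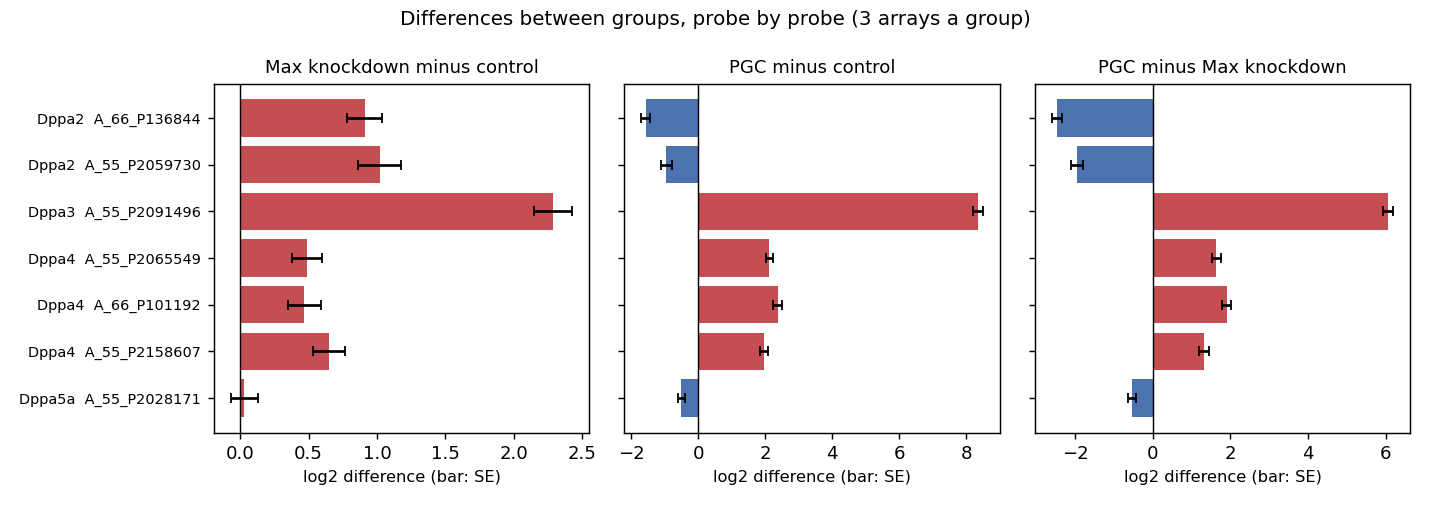
Log2 difference of each Dppa probe (x axis, different in each panel) for Max knockdown minus control, PGC minus control and PGC minus Max knockdown, from the fit of 9 arrays, with 3 a group. Bars in red are above 0 and in blue below 0, and error bars are SE. Dppa3 has the longest bar in each panel (2.29, 8.35 and 6.06), and Dppa2 is above 0 in the first panel and below 0 in the other panels.

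Because the 3 comparisons share their groups, the ratio of probes within an array gives a view that is not changed by scaling each array by a constant factor. The log2 ratio of Dppa4 (A_55_P2065549) to Dppa2 (A_66_P136844) was -0.09, 0.03 and -0.02 on the control arrays. It was -0.62, -0.36 and -0.36 on the knockdown arrays and 3.76, 3.42 and 3.82 on the PGC arrays. In knockdown cells the ratio shifted slightly towards Dppa2, by -0.42 (SE over arrays 0.09), and in PGCs strongly towards Dppa4, by 3.69 (SE over arrays 0.13), a 12.9-fold change of the ratio. PGCs and knockdown cells differed by 4.11 (SE over arrays 0.15), or 17.3-fold. None of the 3 groups overlapped in this ratio, and each exact permutation p was 0.1, the smallest possible. The probes have their own brightness, so the ratio shows unequal change and not which transcript was more abundant.

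The ratio of Dppa3 to 1 probe of each other member rose in both comparisons with control, which follows from its rise being the largest in each. Each shift is the difference between the log2 differences of its probes given above, so it is no separate result. The same holds for the ratio of Dppa4 to Dppa2. Its ratio to Dppa4 (A_55_P2065549) rose by 1.80 (SE over arrays 0.18) in knockdown cells and by 6.21 (SE over arrays 0.07) in PGCs. Its ratio to Dppa5a rose by 2.25 (SE over arrays 0.18) and 8.84 (SE over arrays 0.15). Its ratio to Dppa2 (A_66_P136844) rose by 1.38 (SE over arrays 0.12) and 9.90 (SE over arrays 0.10). Again no groups overlapped, with an exact permutation p of 0.1 for each. With normexp, which is no constant factor per array, the knockdown shifts were 0.81 against Dppa4, 1.11 against Dppa5a and 0.38 against Dppa2.

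**Figure D3:**
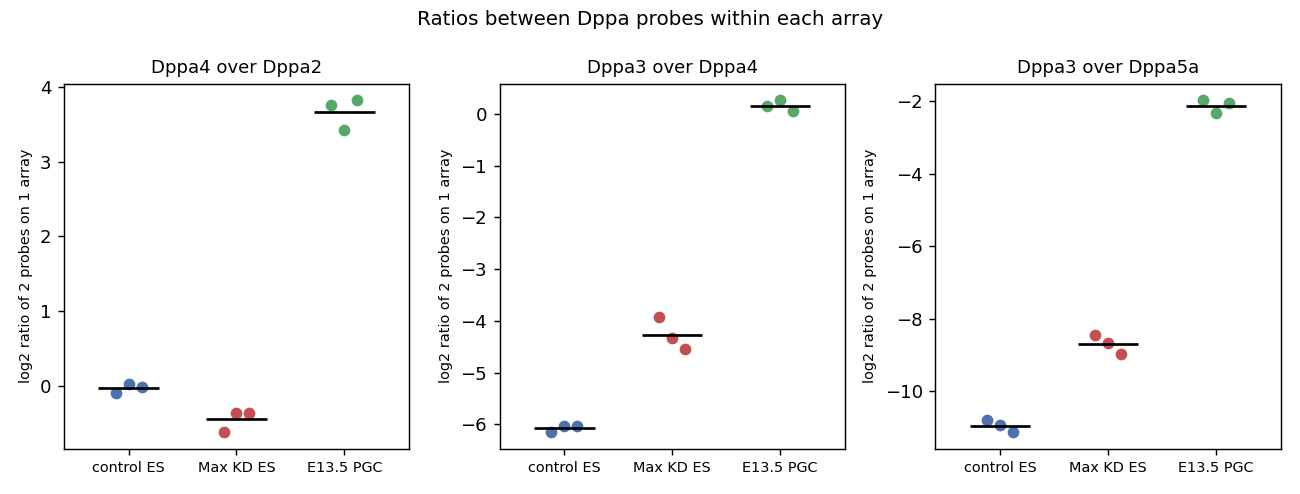
Log2 ratio of a pair of Dppa probes on the same array (y axis, different in each panel) in control ES, Max knockdown (KD) ES and PGC arrays. Points are single arrays and lines are means of 3. Dppa4 over Dppa2 is lowest in knockdown cells and 3.69 above control in PGCs, and both ratios of Dppa3 rise from control to knockdown to PGCs.

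Dppa2 and Dppa4 lie next to each other on chromosome 16 in the gene table, with Dppa4 first. Of the other genes within 3 places of either, Morc1, which encodes a germline repressor of transposons, was the only one tested. It rose by 1.23 in knockdown cells (limma adjusted p = 0.0079) and by 0.79 in PGCs over control (limma adjusted p = 0.027). The Morc1 difference between PGCs and knockdown cells, -0.44, did not pass the test (limma adjusted p = 0.18). So of these 3 neighbours only Dppa2 was lower in PGCs than in control cells. Beside Dppa3 on chromosome 6, the TGF-beta family ligand Gdf3 had a knockdown difference of -0.29 (limma adjusted p = 0.07) and fell by 1.20 in PGCs against control (limma adjusted p = 1.6e-05). Apobec1, a cytidine deaminase gene on the same side, fell by 1.37 in knockdown cells and fell by 3.06 in PGCs (limma adjusted p = 1.5e-05 and 1.6e-08), whereas Dppa3 rose in both. Beside Dppa5a on chromosome 9, Ooep, which encodes another KH-type protein of the oocyte, rose by 0.67 in knockdown cells (limma adjusted p = 0.037) and was lower by 0.56 in PGCs than in control cells (limma adjusted p = 0.039).

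Genes of the 2-cell-like state, many of which need DPPA2 and DPPA4 through Dux, were taken as a list. They rose in knockdown cells and fell in PGCs, as Dppa2 did, whereas Dppa4 rose in both. A part of the Dppa genes in these differences was not tested. Of 14 tested, 13 rose in knockdown cells, 0 fell and 1 did not pass, and the median difference was 2.62, against -0.06 over all tested probes. The shares over all tested probes were 18.3% risen and 21.7% fallen. Among the 13, Tdpoz4 was tested only because every knockdown array was above background. Arg2, an arginase gene, rose by 3.00 (limma adjusted p = 6.5e-05) and Usp17lb, a deubiquitinase gene, by 2.87 (limma adjusted p = 0.00011). In PGCs against control, 12 fell, 1 rose and 1 did not pass, where 32.3% of all tested probes fell and 43.4% rose. On the PGC arrays 11 of the 14 were not well above background, so their differences are bounds, and with genes at their bound the median was -2.59, against 0.18 over all tested probes. Zscan4f was at least 224-fold lower (limma adjusted p = 1.5e-08) and Gm5662 at least 79.4-fold lower (limma adjusted p = 6.2e-08). These bounds set the bright control group against the lowest signal of a detected probe on each PGC array, or the probe's own signal where higher. The p-values are those of the fitted differences and do not test the bounds. Zscan4 and Usp17l genes have near-identical copies, so their probes may read several genes.

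Known repressors of the 2-cell-like state, among them Polycomb (PRC1.6) subunits that act with MAX, moved in both directions. Of 15 tested, 5 rose, 3 fell and 7 did not pass in knockdown cells, with a median of -0.10, beside 18.3% risen and 21.7% fallen among all tested probes. The MAX-associated L3mbtl2 rose by 0.55 (limma adjusted p = 0.00088), and Ehmt2, which encodes the H3K9 methyltransferase G9a, fell by 0.62 (limma adjusted p = 0.0014). In PGCs against control, 9 rose, 2 fell and 4 did not pass, with a median of 0.27, where 43.4% of all tested probes rose and 32.3% fell. E2f6, a repressor of germ cell genes, rose by 1.48 (limma adjusted p = 3.1e-06), and Chaf1b, a chromatin assembly subunit, fell by 1.53 (limma adjusted p = 6.4e-06).

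Genes of DNA methylation and demethylation were taken as a list because DPPA3 bears on both. Of 9 tested, 7 fell and 2 rose in PGCs against control, with a median of -1.78. Over all tested probes, 32.3% fell and 43.4% rose. The methyltransferase gene Dnmt3b fell by 3.05 (limma adjusted p = 1.6e-08) and Dnmt3a by 1.78 (limma adjusted p = 2.7e-07). Uhrf1, whose protein DPPA3 binds, fell by 1.99 (limma adjusted p = 3.5e-07). The maintenance methyltransferase gene Dnmt1 rose by 0.65 (limma adjusted p = 0.00065), and Uhrf2, a relative of Uhrf1, rose by 0.29 (limma adjusted p = 0.023). The demethylation genes Tet2, Tet3 and Tdg were among the 7 that fell. In knockdown cells 3 fell, 0 rose and 6 did not pass, with a median of -0.27. The shares over all tested probes were 21.7% fallen and 18.3% risen. Tdg, a DNA glycosylase gene, fell by 0.36 (limma adjusted p = 0.0091) and Dnmt3b by 0.31 (limma adjusted p = 0.014), and Uhrf1 differed by -0.21 (limma adjusted p = 0.13).

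The KH-domain relatives of Dppa5a and other genes of the oocyte's maternal complex had no common direction. Of 9 tested, 2 rose, 1 fell and 6 did not pass in knockdown cells, beside 18.3% risen and 21.7% fallen among all tested probes. Of those 6, Khdc1a and Khdc1b were above background on no ES array and Khdc1c on no knockdown array and 1 control array, so no difference was measured for them. Nlrp5, a subunit gene of the maternal complex, rose by 0.98 (limma adjusted p = 0.00085), and Padi6, which encodes an egg protein of the peptidylarginine deiminase family, fell by 1.18 (limma adjusted p = 0.0012). In PGCs against control, 5 rose, 3 fell and 1 did not pass, where 43.4% of all tested probes rose and 32.3% fell. Among the 5, Khdc1a, Khdc1b and Khdc1c were tested only because every PGC array was above background, so their selection favoured a rise. The others that rose, Khdc3 and Nlrp5, were above background on every array. Khdc1a, a KH-domain gene, was at least 60.8-fold higher in PGCs (limma adjusted p = 1.7e-08), and Tle6, which encodes a subunit of the maternal complex, fell by 2.55 (limma adjusted p = 1.1e-07). The p-value of Khdc1a is that of its fitted difference and does not test the bound.

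Naive pluripotency genes, expressed beside Dppa2, Dppa4 and Dppa5a in ES cells, fell more often than they rose in PGCs. Of 20 tested, 13 fell, 5 rose and 2 did not pass against control, with a median of -1.13. Over all tested probes, 32.3% fell and 43.4% rose. Fgf4, a growth factor gene, was well above background on 1 of 3 PGC arrays, so its fall (limma adjusted p = 1.3e-08) is given without a fold. The Nodal co-receptor gene Tdgf1 was 63.1-fold lower (limma adjusted p = 2.3e-08). In knockdown cells 6 rose, 1 fell and 13 did not pass, with a median of 0.26, beside 18.3% risen and 21.7% fallen among all tested probes. The 1 that fell was Nanog, whose probe was dim, at -4.17 in control and -5.14 in knockdown cells. It was well above background on 2 of 3 knockdown arrays, and it was also among the 5 that rose in PGCs. Klf4 rose by 0.92 (limma adjusted p = 0.00053) and Klf5, another Krüppel-like factor, by 0.78 (limma adjusted p = 0.0015).

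**Figure D4:**
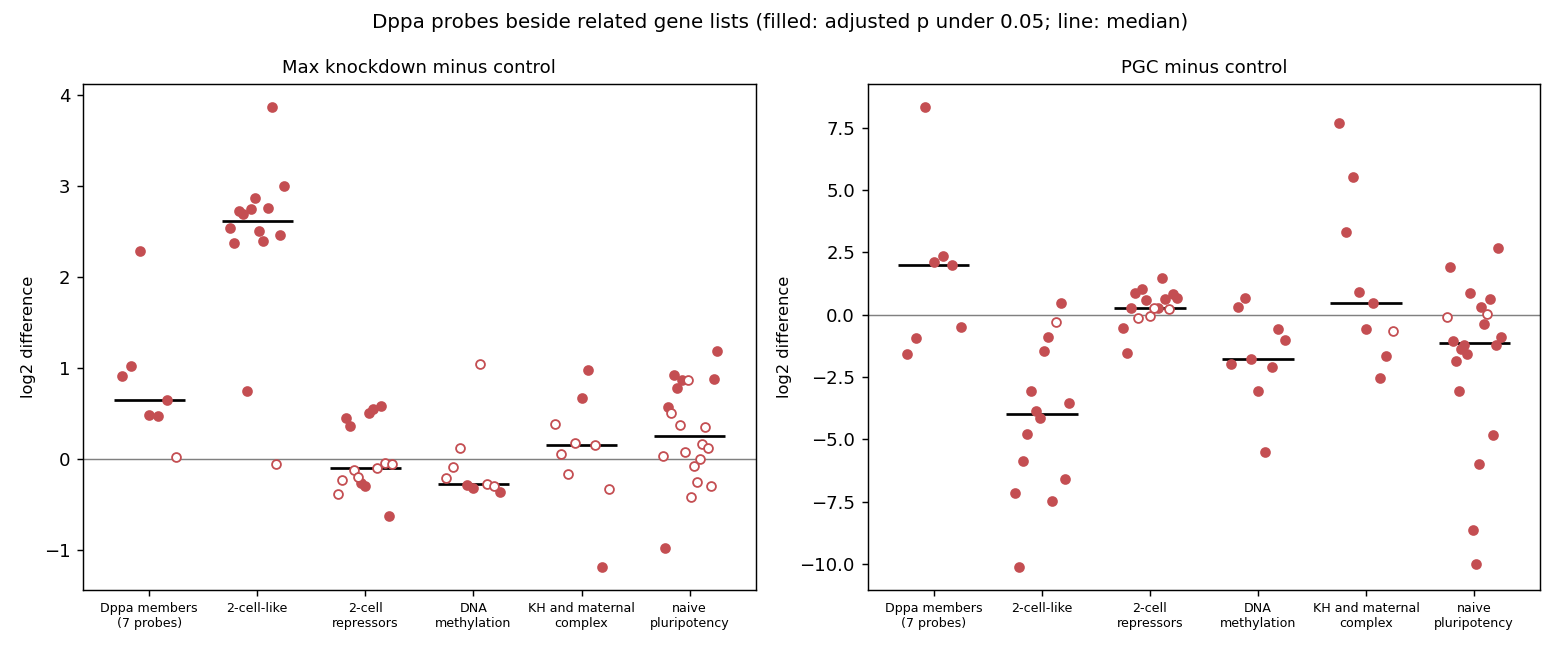
Log2 difference (y axis, different in each panel) of the 7 Dppa probes and of each tested gene of 5 lists, for Max knockdown minus control and PGC minus control. Filled points passed an adjusted p of 0.05, open points did not, and lines are medians of the fitted values. The Dppa column holds several probes of Dppa2 and of Dppa4, whereas each list gene has a single probe. The 2-cell-like genes have a median of 2.62 in knockdown cells and -4.01 in PGCs, where 11 of the 14 were not well above background in PGCs and their plotted values are no measured folds.

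The markers of other cell types moved as follows, and their counts stand beside the shares over all tested probes. Those shares were 18.3% risen and 21.7% fallen in knockdown cells, and 43.4% risen and 32.3% fallen in PGCs against control. The summed linear level of the 10 germ cell markers, in units of the 75th percentile, was 12.7 to 16.3 on control arrays, 43.7 to 53.0 on knockdown arrays and 105 to 126 on PGC arrays, the same order as Dppa3 and Dppa4. Of the 10, 5 rose in knockdown cells and 5 did not pass, and 9 rose and 1 fell in PGCs against control. The 5 include Ddx4, whose promoter drives the gate that selected the knockdown cells, so its rise is no independent result. Among the 9, Nanos2 was tested only because every PGC array was above background. The sum of 10 gonadal somatic markers was 2.39 to 3.30, 1.78 to 2.66 and 2.67 to 5.10 in the same groups, with Amh, Hsd3b1 and Lhx9 above background on no control array and all 10 above it on at least 1 PGC array. Of the 9 of these tested, 5 rose, 1 fell and 3 did not pass in PGCs against control, with a median of 1.71, and Hsd3b1, a steroid synthesis gene, was at least 56.8-fold higher. Among the 5, Amh and Hsd3b1 were tested only because every PGC array was above background. In knockdown cells 0 rose, 3 fell and 6 did not pass. Among the 3, Sox9 was tested only because every control array was above background. Of the 6, Amh was above background on no ES array and Hsd3b1 on 1 knockdown array and no control array, so no difference was measured for them. The sum of 8 fibroblast markers was 12.8 to 15.1, 7.03 to 7.46 and 1.62 to 2.29, and Postn was above background on no array. This sum was lowest in PGCs, as Dppa2 was, but it fell in knockdown cells, where Dppa2 rose. Vim, the brightest of these genes, weighs most in it. Of the 7 tested, 0 rose, 5 fell and 2 did not pass in knockdown cells. In PGCs against control 6 fell and 1, Col3a1, rose by 1.08 (limma adjusted p = 0.019). Of 5 blood and endothelial markers tested, 3 rose, 0 fell and 2 did not pass in knockdown cells, where Tie1, an endothelial receptor gene, was 7.16-fold higher, Tek 2.19-fold and Pecam1 1.77-fold. In PGCs against control 2 rose, 2 fell and 1 did not pass, with the haemoglobin gene Hba-a1 14.8-fold higher and Tie1 at least 2.44-fold lower. The part of other cells in the Dppa differences was not tested.

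The genes whose profiles over the 9 arrays lay nearest to each Dppa probe differed between probes of one gene. Likeness was the root mean square difference of log2 levels after each probe was centred on its own mean, among 9539 probes changed at least 2-fold in a comparison. Nearest to Dppa3 were Mbl2 (0.42), Asb9 (0.47) and Egr4 (0.63). The distance is not scaled for the size of the changes, which was largest for Dppa3, so it is not compared between members. Asb9 differed by 2.07 between knockdown and control and by 8.44 between PGCs and control, beside 2.29 and 8.35 for Dppa3. Nearest to the brighter Dppa2 probe were Trip12 (0.10), Ncoa3 (0.11) and Serpinb1a (0.12), and to the dimmer one Sult5a1 (0.11), Nefm (0.13) and Cdsn (0.14). The 3 Dppa4 probes were nearest to Fbrsl1 (0.09), Ctr9 (0.09) and Tbc1d5 (0.11) for A_55_P2065549, to Rmc1, Aplf and Hinfp (each 0.12) for A_66_P101192, and to Mphosph10 (0.06), Rbm44 (0.11) and Pik3r6 (0.11) for A_55_P2158607. No gene was named for more than 1 Dppa probe. Dppa5a did not itself change 2-fold, and its nearest were Gnptg (0.21), Mbd4 (0.22) and Klhl22 (0.22).

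The slides bear on these values in different ways. In the comparison of knockdown with control, slide fitted as a block left all 6 rises past the test, with Dppa4 at limma adjusted p-values of 0.014, 0.012 and 0.0044 on its 3 probes. The PGC arrays lay on slides that held no ES array. With slide as a random block, the PGC difference from control was -1.55 and -0.94 for Dppa2, 8.37 for Dppa3, 2.14, 2.39 and 2.0 for Dppa4 and -0.51 for Dppa5a, and each passed the test. Scaling on spike-in transcripts moved the median of all tested probes in PGCs against control from 0.18 to -0.77, and risen probes went from 57.3% to 13.2% of those called. In that scaling Dppa2 was at -2.51 and -1.89, Dppa3 at 7.39 and Dppa5a at -1.45, each past the test.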

How the data were processed

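RNA of 9 samples was measured on 1-colour (Cy3) Agilent arrays, and groups were taken from the deposited titles. The spot intensity was extracted with Feature Extraction 10.7.3.1, which subtracted background and removed spatial trends, per the file headers. The deposited table holds log2 values, with scale and centring not stated. Its columns ran in the same direction as the scanner values, matched them after scaling on the 75th percentile and centring on each probe's median (r across probes 0.99994 to 0.99999), and had medians of -0.02, -0.12, -0.07, 0, 0, 0, 0, 0.34 and 0.39. Whether other steps were applied to it is unknown, and it was used as an alternative.

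Spots of a probe were averaged, control spots and 65 probes with a feature outlier flag were left out, and log2 of the processed signal minus the array's 75th percentile was taken. RefSeq accessions named 26012 of 39364 probes through a GRCm38.p6 gene table, used for names and gene order since the header's build is mm9, and 13352 kept the file's name. Sequences of the members were not used here. Tested were the 25129 probes that passed the background test on every array of a group. lmFit and eBayes of limma 3.58.1 (R 4.3.3) fitted 3 groups over 9 arrays, with Benjamini-Hochberg adjustment, and were checked on simulated data. Their number, 3 a group, limits the precision. The design text calls replicates biological. What a number marks is not given, so p-values measure the spread between these samples. Replicates correlated at 0.991 to 0.995.

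Members and gene lists were chosen with earlier results of these data known. Named were all members, Max, Ddx4, Pou5f1, the 3 nearest profiles, neighbours within 3 places, and the 2 genes of each list with the smallest p in the comparison described, with Uhrf1 added for its link to DPPA3. The summed level of the blood and endothelial markers is not reported here. Slides 1 and 2 held control 1, control 2, knockdown 1 and knockdown 2, and control 3 and knockdown 4. Slides 3 and 4 held the PGCs. Alternatives were quantile and spike-in scaling (7 of 10 spike-in probes), normexp (offset 50), no or stricter filters, other rules for probes of a gene, an intensity trend, the deposited table, blocks for replicate or slide, 2-group fits, and leaving out single arrays. Normexp without spots of local background over 100 was added after seeing the data.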

Additional observations from a re-analysis of the deposited data

How the results depend on the processing

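No difference of a Dppa probe that passed the test changed direction under any alternative run. Spike-in scaling changed most calls, with an SE of 0.51 for each Dppa probe. Under it, knockdown against control had 1168 called probes in place of 10058, and 71.7% of the called probes had risen in place of 45.8%. Dppa2 was at 0.93 and 1.04 (limma adjusted p = 0.55 and 0.41) and Dppa4 at 0.50, 0.49 and 0.67 (1, 1 and 0.89). PGCs against control had 10532 called in place of 19006, with Dppa4 at 1.18 and 1.02 on A_55_P2065549 and A_55_P2158607 (limma adjusted p = 0.051 and 0.096). PGCs against knockdown had 10180 called in place of 19198, with 11.9% risen in place of 58.8% and Dppa4 at 0.67, 0.93 and 0.35 (limma adjusted p = 0.3, 0.14 and 0.63). The median of all tested probes in PGCs against knockdown was 0.21, -0.76 with spike-in scaling and 0.10 with normexp. The cause was not tested.

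With a replicate block, the knockdown differences of Dppa4 on A_55_P2065549 and A_66_P101192 were 0.48 and 0.46 (limma adjusted p = 0.067 and 0.089), and 3518 probes rose and 3944 fell. Deviations of same-numbered control and knockdown arrays correlated at 0.36 and 0.40, but those of control 3 and knockdown 4, on one slide, at 0.50. Same-slide arrays of different numbers, control 1 with knockdown 2 and control 2 with knockdown 1, correlated at -0.03 and -0.06, and same-numbered PGC and ES arrays at -0.03 to 0.02. With 2 shared numbers and no label for what a number marks, the numbers were not taken as pairs. Leaving out 1 array, Dppa4 on A_66_P101192 ranged from 0.36 to 0.54 in knockdown against control. Within slide 2, with 1 array a group, Dppa2 on A_55_P2059730 was at 1.17 and Dppa5a at -0.02. Low signal limits Dppa3 in control cells and the dimmer Dppa2 and Dppa4 probes: with normexp, the Dppa2 fall in PGCs was -0.47 and its knockdown rise 0.71.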
